A study of Mus musculus with 52 samples.

Results

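Firre and Dxz4 are tandem repeat loci of the mouse X chromosome, and the peaks of SmcHD1, CTCF and Rad21 at both were examined in 8 deposited peak lists. The members were chosen by name: Firre (ENSMUSG00000085396.7), on the - strand at chrX:50555744-50635321, and 4933407K13Rik (ENSMUSG00000087396.7), the annotated transcript of Dxz4, on the - strand at chrX:75725458-75764699, on build mm10. Each was taken with 200 kb on either side. These 2 windows held 296 of the 418635 peaks in the 8 lists. For SmcHD1 they held 18 of 6993 peaks in wt and 0 of 244 in mut. For CTCF they held 44 of 60204 (wt), 44 of 57798 (mut) and 49 of 69736 (somKO). The Rad21 numbers were 47 of 67655, 46 of 66031 and 48 of 89974. Peaks that touched the gene body or its sequence repeat are called core peaks here, and all others are flank peaks.

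The lists came from chromatin immunoprecipitation sequencing (ChIP-seq) of female mouse embryonic fibroblasts (MEFs) grown as clones. They derive from an F2 cross of FVB (domesticus) with castaneus mice that was designed to keep the X of either strain whole, and the castaneus X is Xi in wt and mut. The wt cells were clone Wt2A1, and the germline mutant (mut) was clone Mut5A6, which is null for SmcHD1 through the MommeD1 point mutation. The somatic knockout (somKO) was made with CRISPR and comprised clones A3-3 and D4, both triploid and derived from a wild-type clone other than Wt2A1, so that clone and genotype cannot be told apart in any comparison. Each list was called on merged libraries. For wt and mut these were 3 each for SmcHD1 and CTCF and 2 each for Rad21, and the somKO lists rest on 4 libraries per antibody over both clones. With 1 list per antibody and genotype there was no replicate error and no test, reads of Xa and Xi were pooled, and sequencing depth is unknown. The strength of a peak is therefore given as its percentile, the share of peaks in its own list with a lower score, with ties split evenly.

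Dxz4 is a macrosatellite known as the hinge between the mega-domains of the inactive X, and Firre encodes a long non-coding RNA from a locus with its own internal repeats. CTCF is a sequence-specific DNA-binding protein, cohesin (of which Rad21 is a subunit) is halted at CTCF sites according to their orientation, and SmcHD1 is a non-canonical SMC protein enriched on Xi. Both loci bind CTCF in many repeat copies and form very long contacts on Xi.

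The repeats were located in the reference sequence by 25-base words that occur at least 3 times in a window and nowhere else on X. At Dxz4, 1 stretch of 33153 bp (chrX:75728958-75762110) filled most of the gene body, and 76.6% of its words recurred. At Firre, words recurred in 2 less dense stretches, one of 22964 bp (chrX:50594784-50617747) with 31.1% of words and one of 20233 bp (chrX:50564031-50584263) with 17.0%. A further array of 26472 bp lay outside the Dxz4 gene body, at chrX:75644510-75670981, and 53.7% of its words recurred. Neighbouring copies of a word in the Dxz4 repeat had a median spacing of 4853 bp, and with spacings sorted into steps of 100 bp the step from 4800 bp was the commonest (35.1% of spacings). In the denser Firre stretch the commonest step began at 2600 bp and held 47.9% of spacings.

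Within these repeats the same CTCF motif word recurred at the peaks. The CTCF motif was learned from CTCF wt peaks of chromosome 1, so that no X peak entered, and its best match was read at every CTCF site. At 7 of 12 CTCF sites in the Firre repeat the best match was an identical 19-base word, and at 9 of 13 sites in the Dxz4 repeat it was another. The Firre word had 7 exact copies on X, all in Firre and all on the - strand, which is the strand of the gene. The Dxz4 word had 12 exact copies on X, all in Dxz4 and all on the + strand, opposite to the gene. Both words shared 14 of 19 bases (73.7%), including the last 8. They are shown with 15 bases on either side, read on the strand of the match, with the word in capitals, to let the copies of both loci be compared.
Firre, 18.2 kb downstream, chrX:50617148-50617196 (- strand): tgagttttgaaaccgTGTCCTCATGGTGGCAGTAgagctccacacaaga
Firre, 32.8 kb downstream, chrX:50602527-50602575 (- strand): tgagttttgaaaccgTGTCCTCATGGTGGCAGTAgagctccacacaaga
Firre, 55.0 kb downstream, chrX:50580343-50580391 (- strand): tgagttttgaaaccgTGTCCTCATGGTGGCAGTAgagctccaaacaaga
Firre, 20.8 kb downstream, chrX:50614514-50614562 (- strand): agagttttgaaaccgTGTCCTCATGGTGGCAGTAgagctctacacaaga
Dxz4, 6.48 kb downstream, chrX:75758200-75758248 (+ strand): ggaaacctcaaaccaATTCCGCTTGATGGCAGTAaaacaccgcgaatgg
Dxz4, 20.1 kb downstream, chrX:75744623-75744671 (+ strand): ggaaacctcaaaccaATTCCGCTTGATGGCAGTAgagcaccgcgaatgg
Dxz4, 30.9 kb downstream, chrX:75733818-75733866 (+ strand): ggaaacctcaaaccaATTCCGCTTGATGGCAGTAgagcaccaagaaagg
Dxz4, 36.0 kb downstream, chrX:75728643-75728691 (+ strand): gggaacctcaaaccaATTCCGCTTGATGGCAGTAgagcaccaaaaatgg

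All 7 Firre copies lay inside a peak in each of the 3 CTCF and 3 Rad21 lists. Of the 12 Dxz4 copies, a CTCF peak covered 11 in wt, 8 in mut and 10 in somKO. A Rad21 peak covered 9 in wt, 9 in mut and 11 in somKO. The copy at chrX:75745635, given by the first base of the word, was in no peak of any list, although its neighbour 997 bp away was in all 6. Spacing between Dxz4 copies ran from 969 to 4756 bp (median 3849), and between Firre copies from 2634 to 22184 bp (median 6908.5). Reads from copies this alike can align equally well to several places, and how such reads were placed is not given in the sources used here.

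The Dxz4 word scored lower against the motif than the Firre word. A match was called at a score of 11.4, which 5% of all 326878 X tiles of 500 bp reached on either strand. The Firre word scored 13.4, and 1.73% of tiles held a score as high, whereas the Dxz4 word scored 11.2, just under the threshold, with 5.29% of tiles as high. Of CTCF wt core peaks, 14 of 18 at Firre and 0 of 12 at Dxz4 held a match within 500 bp around the midpoint, beside 74.7% of all CTCF wt peaks on X. With a looser threshold that 10% of tiles reach, chosen after seeing the data, 29 of the 30 core peaks held one. Both repeats lacked any match at the stricter threshold that 0.5% of tiles reach.

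Not every Firre site carried the word on the - strand. Best matches at the 12 repeat sites were on the - strand at 8 and on the + strand at 4, and the 5 sites in the gene body outside the repeat had 4 on the + strand. At Dxz4, 11 of 13 repeat sites had their best match on the + strand. The commonest CTCF words of the loci were thus on opposite strands of the chromosome, which did not hold for all motif matches. At the threshold the Firre repeat held 22 matches on the + strand and 12 on the - strand. Within CTCF wt peaks these were 10 and 9. With the looser threshold the Firre repeat held 44 and 19, and the Dxz4 repeat held 39 and 0.

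Outside the repeats, 2 further sequences are shown for sites described below. The first is the best match of the flank site with the highest CTCF rank in both windows, and the second is the best match of the higher-ranked of 2 CTCF sites listed in mut alone. The latter scored 9.07, under the threshold, and 15.4% of X tiles held a score as high. Its 49 printed bases were identical to those of the somKO-only site at chrX:50390799-50390847, on the same strand. How reads were placed between these sites is not known either.
CTCF site beside the further Dxz4 array, chrX:75673882-75673930 (+ strand): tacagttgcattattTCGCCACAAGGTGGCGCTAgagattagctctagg
mut-only CTCF site near Firre, chrX:50537969-50538017 (+ strand): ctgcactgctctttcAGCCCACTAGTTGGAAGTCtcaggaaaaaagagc

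**Figure D1:**
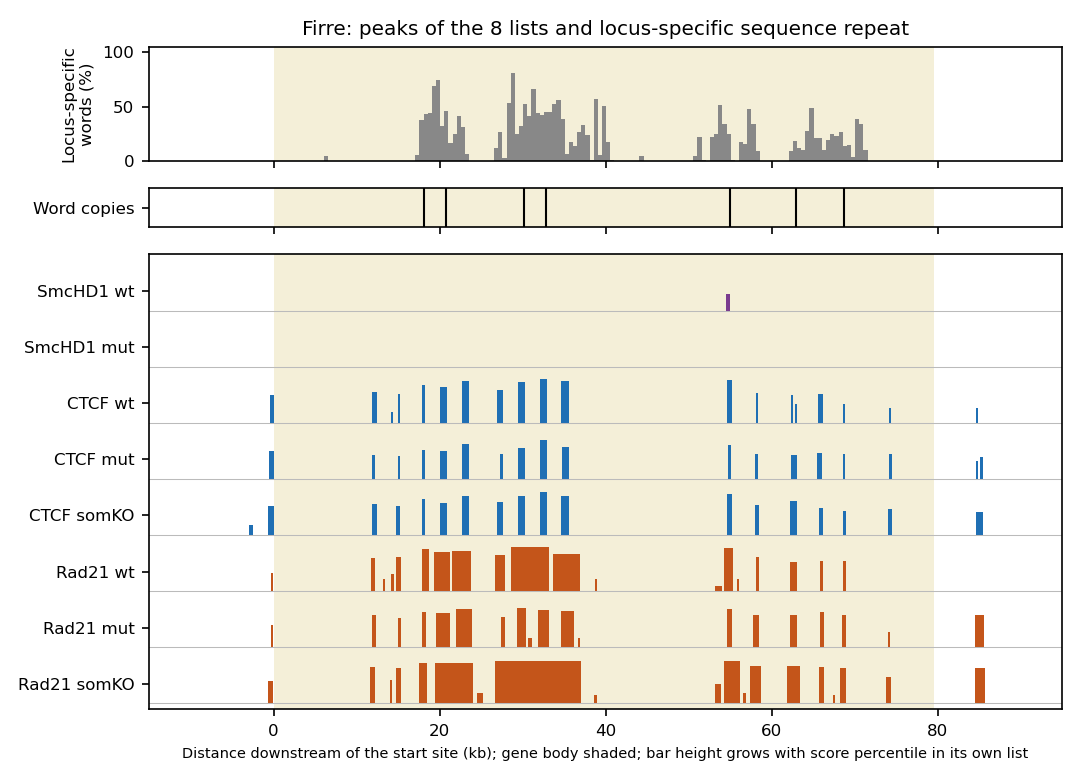
Peaks of the 8 lists over Firre, by distance downstream of its start site in kb. The top panel gives the percent of 25-base words in each 500 bp that recur in the locus alone, ticks mark the 7 word copies, and the height of each bar grows with its score percentile in its own list. CTCF and Rad21 peaks stand on the repeat in wt, mut and somKO, and SmcHD1 has 1 core peak in wt and none in mut.

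**Figure D2:**
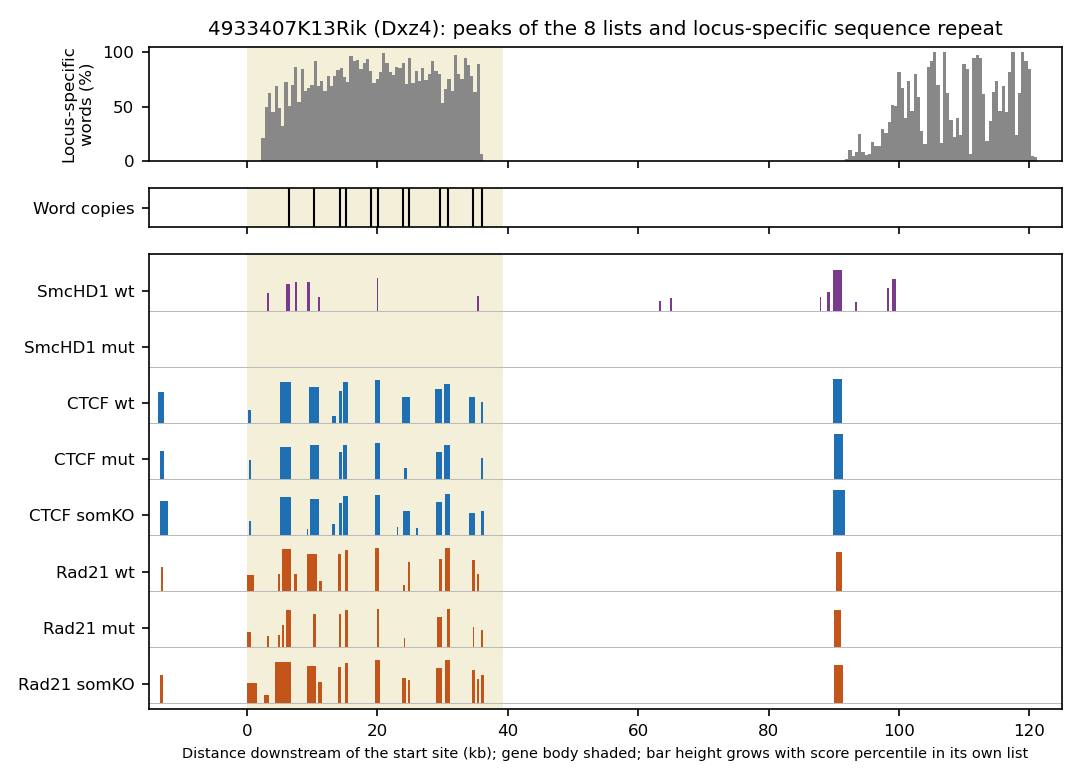
Peaks of the 8 lists over 4933407K13Rik (Dxz4) and the further array beside it, drawn as for Firre with 12 word copies. SmcHD1 wt peaks stand in the gene body and around the end of the further array, where a single CTCF site lies 90.8 kb downstream of the start site.

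Both loci were densely covered by CTCF and Rad21 in wt cells. Firre carried 18 CTCF and 18 Rad21 core peaks, 2.26 per 10 kb of gene body for each. Dxz4 carried 12 CTCF and 15 Rad21 core peaks, 3.06 and 3.82 per 10 kb. Flank peaks numbered 5 and 9 for CTCF at Firre and Dxz4, or 0.125 and 0.225 per 10 kb, beside 0.114 per 10 kb over the whole of X. Among 489 X genes of 20 kb or longer, Dxz4 ranked 1 and Firre 2 by peaks per 10 kb for CTCF and for Rad21 in wt.

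The order depended on the gene models. With the longer GENCODE model of 4933407K13Rik (57768 bp) and the shorter RefSeq model of Firre, Firre ranked 1 and Dxz4 ranked 3 for CTCF in wt. In mut both loci kept ranks 1 and 2 for either antibody on the main models. In somKO on the main models Dxz4 ranked 1 for both, while Firre ranked 6 for CTCF and 3 for Rad21. With the other models Dxz4 ranked 2 for both in somKO, and Firre 5 and 3.

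Other X genes examined for comparison were Xist, the RNA that coats Xi, and 5530601H04Rik, Kdm5c, Kdm6a, Ddx3x and Eif2s3x, which are known to be expressed from Xi. In wt their CTCF density ran from 0 at Ddx3x to 2.07 per 10 kb at Eif2s3x, below both loci, and their Rad21 density from 0.341 at Kdm6a to 1.75 at Xist. In the mutants some were denser than the loci. Ddx3x, a gene of 13083 bp, had 4.59 Rad21 peaks per 10 kb in somKO, above Dxz4 at 3.82, and 2.29 in mut, above Firre at 2.14. For CTCF in somKO, Xist (2.62) and Eif2s3x (2.48) were above Firre (2.01).

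**Figure D3:**
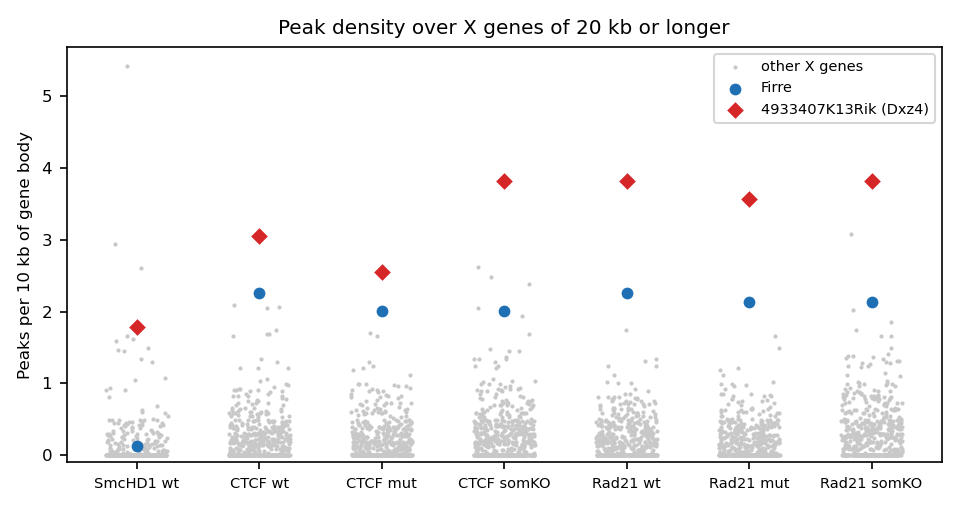
Peaks per 10 kb of gene body (vertical) for 489 X genes of 20 kb or longer in each list but SmcHD1 mut (horizontal), with 1 grey point per gene, Firre as blue circles and 4933407K13Rik as red diamonds. Dxz4 is highest in all 6 CTCF and Rad21 lists, and Firre is second in wt and mut.

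SmcHD1 peaks were denser at Dxz4 than at Firre. In wt the Dxz4 window held 15 SmcHD1 peaks, of which 7 lay in the repeat, and the Firre window held 3. In mut, which lacks the protein and gives the background of the antibody, neither window held a peak, and the list of 244 peaks had 1 on X. By SmcHD1 peaks per 10 kb of gene body Dxz4 ranked 4 of 489 X genes, at 1.78, and Firre ranked 104, at 0.126, beside 0.105 per 10 kb over the whole of X. With the longer model of 4933407K13Rik Dxz4 ranked 13, at 1.21 per 10 kb.

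In the Dxz4 repeat the SmcHD1 peak with the highest percentile was at chrX:75744588-75744783 (69.6), 20.0 kb downstream of the start site. It lay on a copy of the Dxz4 word and under the CTCF wt and Rad21 wt peaks with the highest percentiles in the repeat (94.6 and 96.0). Close to the start site 5 SmcHD1 peaks stood together, at 3.20 kb (chrX:75761377-75761619, percentile 32.8), 6.35 kb (chrX:75758050-75758651, 53.7), 7.57 kb (chrX:75756967-75757293, 59.3), 9.42 kb (chrX:75755036-75755520, 58.6) and 11.1 kb (chrX:75753460-75753749, 23.2). The seventh was at the far end of the repeat, at chrX:75729095-75729411 (25.8). Of these 7, 4 overlapped a CTCF wt peak and 6 a Rad21 wt peak.

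The other 8 SmcHD1 peaks of the Dxz4 window were all on the side of the further array, and none was on the side of Pls3. The highest percentile of both windows was there, at chrX:75673430-75674790 (90.4, rank 671 of 6993 in the list). It coincided with a CTCF wt peak whose midpoint was 33 bp away. Around it lay peaks at chrX:75671220-75671415 (10.4), chrX:75675244-75675663 (33.9) and chrX:75676603-75676807 (23.2), none on CTCF or Rad21. Inside the further array there were 2, at chrX:75665090-75665781 (68.0) and chrX:75666247-75666488 (44.0), and nearer to the gene body there were 2, at chrX:75699536-75699856 (19.5) and chrX:75701217-75701510 (12.3). The further array itself carried no CTCF peak in any list.

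At Firre the single core SmcHD1 peak, chrX:50580265-50580799 (percentile 30.3), lay on a copy of the Firre word and on CTCF and Rad21 wt peaks. The 2 flank peaks were at chrX:50373773-50374013 (37.6), within 1 kb of the start of the pseudogene Gm14612, and at chrX:50657814-50658002 (5.12), on CTCF and Rad21 wt peaks. Over both windows 7 of 18 SmcHD1 peaks (38.9%, 95% Wilson interval 20.3 to 61.4) overlapped a CTCF wt peak, beside 20.4% of the whole SmcHD1 list and 8.43% on X. For Rad21 the count was 9 of 18 (50%, 29.0 to 71.0), beside 25.9% of the list and 11.9% on X. These intervals cover counting error only, and in the core alone the counts were 5 and 7 of 8. Of these 8 core peaks 7 were at Dxz4, where CTCF wt peaks covered 26.0% of the gene body and Rad21 wt peaks 23.9%. Peaks of both were much sparser over X, and the overlap that such coverage alone would give was not tested.

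CTCF sites of the core were shared between genotypes and with Rad21. Merging the CTCF peaks of the 3 genotypes gave 17 core sites at Firre and 15 at Dxz4. The percentile of a site is that of the highest-ranked peak on it. All 12 sites in the Firre repeat were present in all 3 CTCF and all 3 Rad21 lists, as were 8 of 13 in the Dxz4 repeat. The other 5 Dxz4 repeat sites were missing from 1 or more CTCF lists. They were the site at chrX:75729724-75730600, absent in mut, and 4 of low percentile, at most 17.1 in any CTCF list.

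In the Firre repeat the CTCF site with the highest percentile, 32.5 kb downstream at chrX:50602342-50603257, was at 97.4 in wt, 85.5 in mut and 95.3 in somKO. The site at 54.9 kb, on which SmcHD1 had its peak, was at 94.0, 73.6 and 89.5. The site at 35.2 kb was at 92.9, 68.0 and 85.9. At each of these mut was lowest and somKO lay between wt and mut. The same order held at 23.2 kb (91.3, 75.6 and 85.6), at 29.9 kb (88.8, 66.7 and 85.2), at 18.1 kb (83.3, 61.3 and 78.1) and at 20.5 kb (78.1, 58.9 and 68.0). At 27.3 kb (69.7, 51.1 and 70.3) and at 58.2 kb (61.9, 50.7 and 62.6) mut was lowest and somKO was not below wt. The far end of the repeat differed. At 68.7 kb wt was lowest, at 34.5, with 51.8 in mut and 47.7 in somKO, and at 65.8 and 62.7 kb wt was at 60.2 and 58.5, mut at 53.7 and 48.9, and somKO at 56.5 and 74.4.

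In the Dxz4 repeat the site 20.0 kb downstream, which carried the SmcHD1 peak with the highest percentile in the repeat, was at 94.6 in wt, 76.7 in mut and 88.6 in somKO. The site at 15.1 kb was at 90.5, 72.5 and 86.1, and the site at 5.96 kb was at 89.5, 67.8 and 84.3. Mut was again lowest at all 3. At 30.8 kb the values were 84.4, 72.4 and 90.9, with somKO highest. The largest gap was at 24.4 kb, where wt was at 53.8, mut at 16.1 and somKO at 49.2. Sites at 29.5 kb (73.4, 56.6 and 71.8), 14.3 kb (68.1, 56.7 and 68.5) and 10.3 kb (78.6, 73.8 and 79.0) had mut lowest, with wt and somKO less than 2 points apart.

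**Figure D4:**
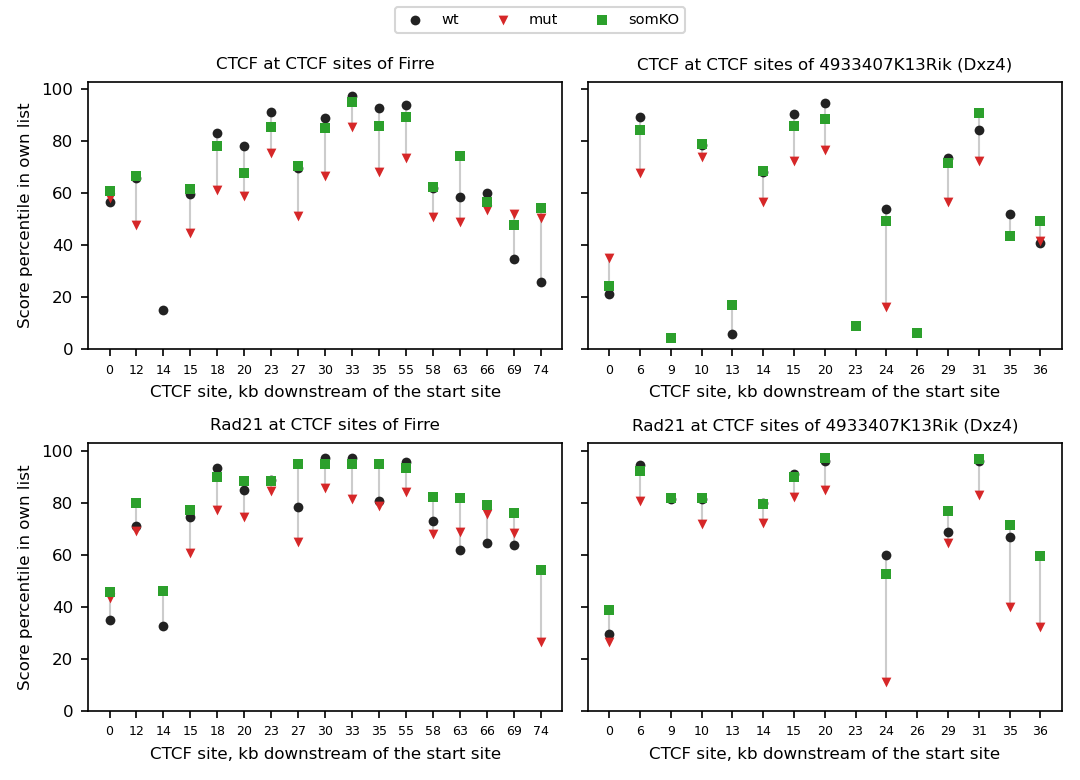
Score percentiles of CTCF (top) and Rad21 (bottom) at the merged CTCF sites of the core, in order of distance downstream of the start site in kb (not to scale), for wt (circles), mut (triangles) and somKO (squares). A missing marker means no peak in that list. Where wt is at 80 or more, any mut marker is lower than the wt marker in every panel.

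Over all core peaks the ranks of CTCF in mut were below those of wt, and those of the flanks were not. Of 27 core CTCF wt peaks with a match in mut, 18 were at least 10 percentile points lower there, 4 were at least 10 points higher, and the median difference (mut minus wt) was -15.2 points. Over the whole list 19% of matched peaks were that much lower, and over X 30.9%. Of 14 matched flank peaks none was, with a median difference of -0.19. On X within 5 Mb of the loci but outside the windows, 29 of 230 matched peaks (12.6%) were at least 10 points lower, and the median difference was 2.86.

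The core peaks that ranked high in wt all ranked lower in mut. All 10 core CTCF peaks at the wt percentile of 80 or more were at least 10 points lower in mut, with a median difference of -19.2, beside 1 of 30 such peaks within 5 Mb and 86 of 242 such peaks on X. Both loci showed it, with 11 of 17 matched core peaks lower by 10 points at Firre and 7 of 10 at Dxz4. The 4 that were at least 10 points higher in mut were at 26.0, 34.5 and 35.8 in wt at Firre and at 21.2 at the Dxz4 start site. The choice of the 5 Mb surroundings and of the wt percentile of 80 was made after seeing the data.

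In somKO few core CTCF peaks were lower by that much. Of 29 matched peaks, 1 was at least 10 points lower (the Firre peak 20.5 kb downstream), beside 2.04% of the list, and the median difference (somKO minus wt) was 0.36 points. On percentiles among X peaks alone the median difference was -4.19 and 3 were that much lower, and with lists of equal length 4 were, so that the sign of the median depended on the scale. Peaks around the loci ranked higher in somKO than in wt, by a median of 10.6 points over 264 peaks within 5 Mb, more than in the core. The 10 core peaks at a wt percentile of 80 or more had a median difference of -4.87, with 9 of 10 lower in somKO, whereas 30 such peaks within 5 Mb had a median of 4.41, with 1 of 30 lower.

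Rad21, the cohesin subunit, had smaller differences with the same sign in mut. Of 24 matched core Rad21 wt peaks, 11 were at least 10 points lower in mut, and the median difference was -9.16 points. Over the whole list 18.2% of matched peaks were that much lower, and within 5 Mb 24 of 212 (11.3%). Over X 27.1% were that much lower, and the median difference was -3.07. Of 11 matched flank peaks none was. All 11 core peaks at a wt percentile of 80 or more were lower in mut, 7 of them by 10 points or more. Of such peaks, 1 of 42 within 5 Mb and 73 of 325 on X were lower by 10 points or more. By any amount, 17 of the 42 and 244 of the 325 were lower. In somKO 1 of 31 matched core peaks was at least 10 points lower, beside 2.78% of the list. The median difference was 8.12, beside 9.37 for the peaks within 5 Mb. By locus it was 9.23 at Firre, beside 8.00 within 5 Mb, and 3.12 at Dxz4, beside 10.4. The 11 core peaks at a wt percentile of 80 or more had a median difference of -0.098 in somKO, with 6 lower. Such peaks within 5 Mb had a median of 5.50, with 0 of 42 lower.

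Rad21 was lowest in mut at the sites of either locus where its wt percentile was highest. At the Dxz4 site 20.0 kb downstream Rad21 was at 96.0 in wt, 84.7 in mut and 97.3 in somKO. At the Dxz4 site at 30.8 kb it was at 95.9, 82.8 and 96.9. At the Firre sites at 29.9 and 32.5 kb, which a single Rad21 peak covered in wt, it was at 97.3 in wt, at 85.6 and 81.6 in mut, and at 94.8 in somKO. This did not hold at the 3 Firre sites from 62.7 to 68.7 kb, where Rad21 was lowest in wt, between 61.9 and 64.3.

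**Figure D5:**
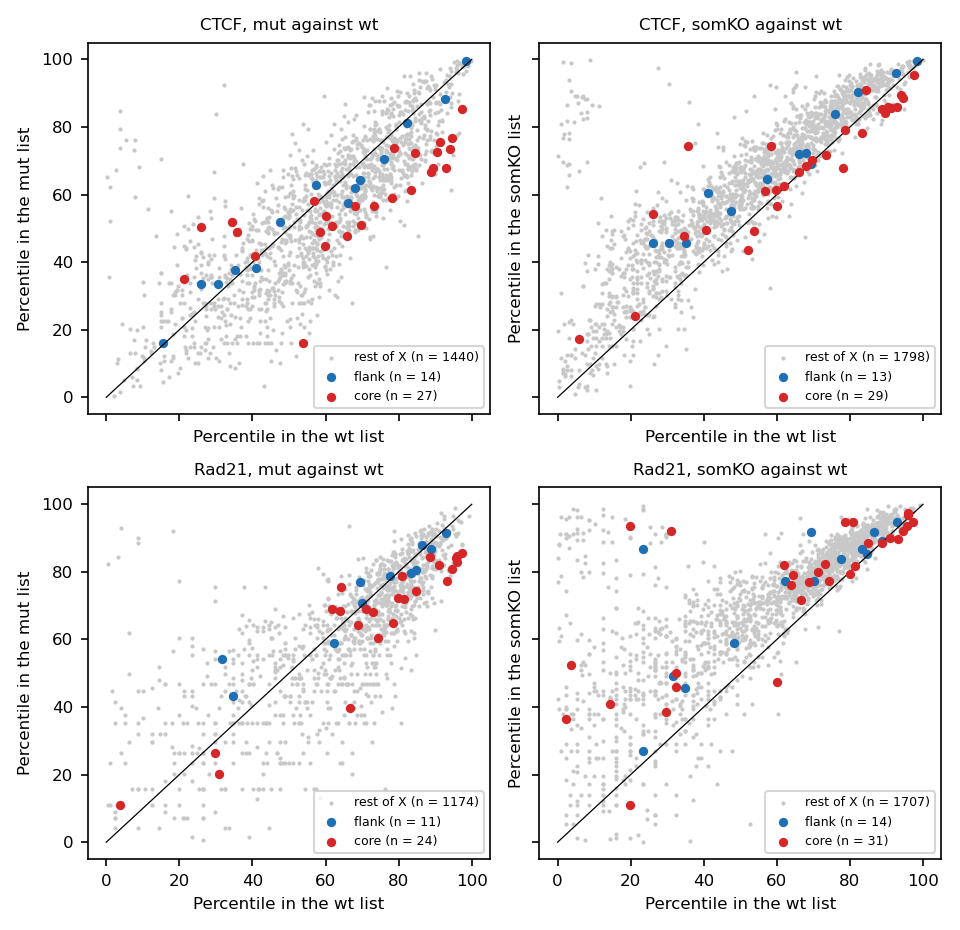
Score percentile of each X peak in wt (horizontal) and of its match in mut or somKO (vertical), for CTCF and Rad21, with core peaks in red, flank peaks in blue, the rest of X in grey and the line of equal percentiles. In mut the core peaks with high wt percentiles lie below the line. Flank peaks lie close to the line in mut, except 1 Rad21 peak that is 22.4 points higher there. Peaks without a match are not drawn.

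By rank within each list the 3 top peaks of the Firre window lay in the core in wt and partly in the flanks in mut. In wt the 3 highest-ranked CTCF peaks of the Firre window were all in the repeat (chrX:50602402-50603243, chrX:50580141-50580642 and chrX:50599733-50600650, the peaks 7, 32 and 40 of X), as were the 3 of Rad21 (chrX:50602118-50606721, chrX:50579940-50581016 and chrX:50616624-50617467, the peaks 2, 15 and 30 of X). In mut the first CTCF peak was in the flank (chrX:50657419-50658431, rank 72 of X), ahead of chrX:50602421-50603217 and chrX:50611784-50612554 (rank 253) in the repeat. For Rad21 in mut 2 flank peaks, chrX:50674768-50676313 (rank 27) and chrX:50503633-50504994 (81), preceded chrX:50604851-50605963 (109). In somKO the first CTCF peak was again the flank peak (chrX:50657092-50658451, rank 45), before chrX:50602342-50603257 (59) and chrX:50580135-50580707 (190). Rad21 in somKO had chrX:50598233-50608587 (71) first, then chrX:50674140-50677654 (74) in the flank and chrX:50579080-50581063 (101). At Firre the flank peaks were therefore ahead of the repeat in mut for both antibodies and in somKO for CTCF. In wt a flank peak followed the first 3 closely, chrX:50656715-50658323 at rank 42 of X for CTCF and chrX:50675136-50676698 at 31 for Rad21.

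In the Dxz4 window the flank site beside the further array ranked first for CTCF in all genotypes. It was followed in wt by chrX:75744335-75745079 and chrX:75749231-75749894 (ranks 24 and 58 of X), in mut by chrX:75809692-75810118 in the flank (157) and chrX:75744356-75745085 (227), and in somKO by chrX:75733511-75734388 (157) and chrX:75809656-75810170 in the flank (168). For Rad21 the first 3 in wt were chrX:75744460-75745050, chrX:75733481-75734280 and chrX:75757951-75759374 (13, 14 and 22), all in the repeat. In somKO the same places led, as chrX:75744299-75745056, chrX:75733510-75734301 and chrX:75757893-75760405 (20, 26 and 149). In mut the flank peak chrX:75809685-75810190 (91) led, before chrX:75744389-75744815 (126) and chrX:75733522-75734024 (170). For both loci, the repeat thus held the first Rad21 peak in wt and in somKO, and the flank held it in mut.

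Some Rad21 peaks on the Firre repeat were wide and ran together. The median width of Rad21 core peaks at Firre was 753.5 bp in wt, 527 bp in mut and 640 bp in somKO. Over the whole lists it was 581, 612 and 643 bp, so that the core median was larger in wt alone. In wt the widest covered 4604 bp (chrX:50602118-50606721), in mut 1975 bp (chrX:50611385-50613359), and in somKO a single peak covered 10355 bp (chrX:50598233-50608587). The somKO peak spanned 4 CTCF sites, each of which had a Rad21 peak of its own in mut. Counts of Rad21 core peaks at Firre were nearly equal, at 18 in wt, 17 in mut and 17 in somKO, while the covered share of the gene body was 25.5%, 17.4% and 33.4%. At Dxz4 the counts were 15, 14 and 15, and the covered share was 23.9%, 15.1% and 31.3%. CTCF peaks covered 11.3%, 10.1% and 12.7% of Firre and 26.0%, 19.6% and 27.3% of Dxz4, in the same order. Both antibodies thus covered least of each gene body in mut, and the part that the length of the lists has in this was not tested.

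Most CTCF peaks of the loci had a partner in the other genotype. Gained peaks are those of mut or somKO with no wt peak of that antibody on even 1 bp, and lost peaks are wt peaks left without such a partner in mut or in somKO. In mut 3 of 44 CTCF peaks were gained (6.82%), beside 16.8% of the list, and all were in the flanks. Lost peaks numbered 3 of 44 (6.82%), beside 19.7%, and all were in the core. In somKO 8 of 49 CTCF peaks were gained (16.3%), beside 22.6%, and 2 of 44 were lost (4.55%), beside 7.63%. Over X the shares were 9.23% gained and 23.7% lost in mut and 26.7% gained and 5.25% lost in somKO. The counts depended on the processing: in somKO 0 CTCF peaks were gained with lists of equal length, and with 50% overlap 13 were gained and 8 lost, beside 7 and 7 in mut.

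The CTCF peak gained in mut with the highest percentile was at chrX:50537720-50538184 (54.4), 97.4 kb downstream of the Firre start site, and it was not found in wt or somKO. A Rad21 peak gained in mut lay on it, at chrX:50537823-50538041 (15.8). The other 2 were at chrX:50549838-50550188 (42.8), with the midpoint of the nearest wt peak 585.5 bp away, and at chrX:75842222-75842456 (17.3), within Pls3. The 3 CTCF peaks lost in mut were at chrX:50620891-50621196 in Firre (wt percentile 14.9) and at chrX:75729743-75730578 (52.2) and chrX:75751101-75751565 (5.99) in the Dxz4 repeat. The second lay on a copy of the Dxz4 word, where Rad21 was listed in mut at 39.7 and in wt at 66.7.

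CTCF peaks gained in somKO were weak, with percentiles from 1.17 to 15.2. In the Dxz4 repeat there were 3, at chrX:75738475-75738835, chrX:75741471-75741748 and chrX:75755276-75755513, none on a copy of the word. The others were at chrX:50390722-50390968, chrX:50637756-50638237 and chrX:50820648-50820859 around Firre and at chrX:75797319-75797668 and chrX:75872823-75873155 beyond the Dxz4 start site. The 2 peaks lost in somKO were chrX:50620891-50621196, which mut also lacked, and chrX:75818629-75818849 (wt percentile 15.4), which mut kept.

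Most Rad21 peaks of the loci also had a partner. In mut 6 of 46 were gained (13.04%), beside 27.2% of the list, and 12 of 47 were lost (25.5%), beside 28.5%. In somKO 11 of 48 were gained (22.9%), beside 37.8%, and 2 of 47 were lost (4.26%), beside 7.22%. Over X the shares were 15.7% gained and 34.7% lost in mut and 38.7% gained and 5.40% lost in somKO. With lists of equal length 4 Rad21 peaks were gained and 4 lost in somKO, and with 50% overlap 19 were gained and 20 lost in mut and 19 gained and 18 lost in somKO.

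At 2 sites near the far end of Firre, Rad21 was listed in mut and somKO and not in wt. At chrX:50549707-50550766 Rad21 was at 69.9 in mut, and the somKO peak at chrX:50549560-50550803 was at 77.2. CTCF was listed there in all 3 genotypes, at 26.0 in wt and at 45.7 in somKO. In mut it had 2 peaks there, one gained at 42.8 without a motif match, and one at chrX:50550418-50550698 (33.5) that overlapped the wt peak and held the match on the + strand. Just inside the far end of the gene, Rad21 was gained in mut at chrX:50561008-50561278 (26.5) and in somKO at chrX:50560954-50561537 (54.2), on a CTCF site at 26.0, 50.5 and 54.3. Both sites, 85.0 and 74.3 kb downstream, thus ranked lowest in wt for CTCF and had Rad21 in mut and somKO alone.

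At Dxz4 the Rad21 peak gained in both was on the word copy at 36.0 kb, at chrX:75728505-75728725 in mut (32.1) and chrX:75728304-75728736 in somKO (59.4). A weak one at the other end of the repeat was gained in both, at chrX:75761308-75761584 in mut (15.8) and chrX:75761292-75762066 in somKO (11.0), over the SmcHD1 wt peak 3.20 kb from the start site. The last Rad21 peak gained in mut was chrX:50503006-50503367 (15.8). In somKO the remaining gained peaks had percentiles of 17.1 or less. They were chrX:50567644-50567862, chrX:50578413-50578718 and chrX:50610114-50610753 in the Firre repeat, chrX:50726316-50726752 in its flank, and chrX:75622092-75622354, chrX:75798578-75798802 and chrX:75834038-75834293 around Dxz4.

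Rad21 peaks lost in mut were mostly weak in wt. The exceptions were chrX:75739729-75739976 (60.03), on a copy of the Dxz4 word, and chrX:75777544-75777836 (48.3), between Dxz4 and Pls3. In the Firre core the others were chrX:50579267-50579507, chrX:50581261-50582103, chrX:50596320-50596608, chrX:50620854-50621192 and chrX:50621840-50622151, with percentiles from 2.34 to 32.5. In the Dxz4 repeat they were chrX:75729032-75729439, chrX:75753239-75753682 and chrX:75756991-75757464, from 14.4 to 32.5. Each of these 3 overlapped a SmcHD1 wt peak, whereas the lost peak at 60.03 did not. Rad21 peaks that mut kept, such as the one at chrX:75744460-75745050, overlapped SmcHD1 too. Of the 7 SmcHD1 core peaks at Dxz4, 6 lay on a Rad21 wt peak. In the Dxz4 flank they were chrX:75796066-75796393 and chrX:75810555-75810907, both at 23.4. The 2 that somKO also lacked, and its only losses, were chrX:50621840-50622151 and chrX:75756991-75757464.

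Most CTCF and Rad21 peaks of the loci coincided. In wt 38 of 44 CTCF peaks (86.4%) overlapped a Rad21 peak, beside 67.6% of the list. In mut it was 39 of 44 (88.6%) beside 68.6%, and in somKO 42 of 49 (85.7%) beside 74.4%. Read from Rad21, 38 of 47 peaks (80.9%) in wt overlapped CTCF, beside 58.9% of the list, 39 of 46 (84.8%) in mut beside 58.4%, and 35 of 48 (72.9%) in somKO beside 54.9%. Over X, CTCF peaks had Rad21 in 66.6% (wt), 67.5% (mut) and 72.6% (somKO), below the 95% Wilson intervals of the windows (73.3 to 93.6, 76.0 to 95.05 and 73.3 to 92.9). Rad21 peaks over X had CTCF in 69.4%, 74.3% and 65.4%, inside those of the windows (67.5 to 89.6, 71.8 to 92.4 and 59.0 to 83.4). All these intervals cover counting error only. They treat neighbouring peaks of the same locus as independent and so are no test, and the X shares include the windows. Every one of the 26 CTCF core peaks in mut had Rad21 on it, against 27 of 30 in wt and 28 of 31 in somKO.

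The CTCF site at chrX:75673020-75674763, 90.8 kb downstream of the Dxz4 start site and close to the end of the further array, stood apart from the repeat sites. It was at percentile 98.4 in wt, 99.5 in mut and 99.6 in somKO. This peak was the third of all X peaks in wt, the second in mut and the fifth in somKO. Rad21 there was at 84.7, 80.6 and 85.3. It held 4 motif matches, all on the + strand, and the best scored 19.5, a score that 0.0306% of X tiles reached. Its sequence is the first of the pair shown above, and the SmcHD1 peak with the highest percentile in both windows lay on it.

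Among the other flank sites the highest CTCF percentiles were at chrX:50656656-50658451, 22.2 kb before the Firre start site (wt 92.6, mut 88.2 and somKO 96.1), and at chrX:75809656-75810170, 45.2 kb before the Dxz4 start site (82.3, 81.2 and 90.5). At chrX:50674914-50675734 CTCF was at 67.9, 62.0 and 72.3 and Rad21 at 93.0, 91.5 and 94.6, and at chrX:50504010-50505282 Rad21 was at 86.5, 87.9 and 91.9. These flank sites differed by less than 10 percentile points between wt and mut.

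CTCF and Rad21 were also listed at the start sites, where CTCF in mut was not below wt. The Firre promoter (250 bases before to 50 after the start in RefSeq, GRCm38.p6) was overlapped by a CTCF and a Rad21 peak in every genotype, where CTCF was at 56.7, 58.0 and 61.0 in the order wt, mut and somKO. Rad21 was at 34.8, 43.2 and 45.5. The 4933407K13Rik promoter was overlapped by Rad21 alone, in wt (chrX:75763546-75764663) and somKO (chrX:75763095-75764681), and only within the 50 bases after the start. The mut peak of the same site, chrX:75764044-75764629, ended just short of the promoter. The CTCF site nearest to this promoter, 0.47 kb downstream, was at 21.2, 35.03 and 24.1. Neither promoter held a match to the CTCF motif at the threshold, which 9.45% of 32851 promoters of the same length did. Both are shown because peaks overlapped them, in lower case throughout as no match was found.
Firre promoter, chrX:50635272-50635571 (- strand): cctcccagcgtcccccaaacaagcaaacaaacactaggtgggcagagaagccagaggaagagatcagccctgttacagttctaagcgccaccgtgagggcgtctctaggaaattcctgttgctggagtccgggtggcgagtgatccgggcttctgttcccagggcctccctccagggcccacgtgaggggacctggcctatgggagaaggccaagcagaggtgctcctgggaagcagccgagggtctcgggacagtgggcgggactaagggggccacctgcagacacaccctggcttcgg
4933407K13Rik promoter, chrX:75764650-75764949 (- strand): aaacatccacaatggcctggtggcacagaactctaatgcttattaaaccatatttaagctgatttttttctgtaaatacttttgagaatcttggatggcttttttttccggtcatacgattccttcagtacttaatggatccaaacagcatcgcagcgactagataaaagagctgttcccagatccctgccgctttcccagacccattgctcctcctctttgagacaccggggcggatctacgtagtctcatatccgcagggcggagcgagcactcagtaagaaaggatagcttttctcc

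Genes near the loci were few. The Firre window held the start sites of Olfr1324, an olfactory receptor gene, of the pseudogenes Gm14612 and Gm14620, and of the snRNA gene Gm22288. Around Dxz4 were those of Rab39b, Pls3, Gm14715, Gm15384, Gm15063, Gm15065, Gm7153, Gm25421 and Gm23320. Of the genes named here, Pls3, which encodes an actin-bundling protein, was the only one with a CTCF or Rad21 peak within 1 kb of its start, and it had both in wt, mut and somKO. Its CTCF peak there was at 30.4 in wt, 33.5 in mut and 45.5 in somKO.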

How the data were processed

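ChIP-seq peaks of SmcHD1, CTCF and Rad21 were taken from 8 deposited lists behind which stand 24 of the 52 libraries; H3K27me3 and input libraries were not used here. SmcHD1 and Rad21 chromatin was fixed with EGS and formaldehyde, CTCF chromatin with formaldehyde alone. The authors aligned reads with bowtie2 to an mm10 genome with strain variants masked, merged the replicate libraries and called narrow peaks with MACS2 at a q-value threshold of 0.05 on reads of both alleles. Versions, the use of inputs and the treatment of reads with several alignments are not given in the sources used here. The deposited score of each peak was used for ranks within a list and, in an alternative, for a minimum score. Its lowest value was 13 in all lists, so it was taken to be -log10 q multiplied by 10. No read counts were used, so that depth and its precision are unknown.

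Peaks were placed on GRCm38.p6 with Firre from GENCODE M21 and 4933407K13Rik from RefSeq, by overlaps of 1 bp, with Python 3.11.15 and numpy 2.4.6. Repeats were stretches of 500 bp bins with at least 10% of 25-base words found 3 or more times in the window. The further condition that the words occur nowhere else on X was set after seeing the data, as interspersed repeats otherwise made up most such words. The CTCF motif, of 19 bases, was learned from 1500 CTCF wt peaks of chromosome 1 with at most 20% soft-masked bases. Sequences are from RefSeq GRCm38.p6. Overlap, motif and repeat steps were checked on simulated data. Named one by one were every SmcHD1 peak, every gained or lost peak, the 3 highest-ranked peaks per list and locus, core sites shared by all CTCF and Rad21 lists, and genes starting in the windows, of which some are not reported here. A list of 6 X genes served for comparison. The members and lists were chosen with earlier results of these data known. Alternatives covered peak placement, score minimum, list length, core, flank size, overlap rule, percentile scale, gene model and motif threshold.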

Additional observations from a re-analysis of the deposited data

How the results depend on the processing

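No paired analysis was possible because each antibody and genotype has 1 list of merged libraries, so that no replicate could be left out either. For 34 counts and shares, 122 of 163 values under the alternatives stayed within 1.5 times the reported count or inside the 95% interval of the reported share. Counts of CTCF and Rad21 core peaks stayed within 1.5 times under all alternatives tried for them (midpoint placement, score minimum, equal list lengths, the repeat or the gene body alone, and the other gene models). With scores of at least 50, SmcHD1 wt peaks numbered 0 in the core and 0 in the flanks of Firre and 3 and 2 at Dxz4, with 3 on CTCF and 4 on Rad21. The same minimum left 3 Rad21 peaks gained in mut, 6 gained and 1 lost in somKO, and Rad21 core peaks on CTCF were 88.9% in wt, 96.2% in mut and 88.9% in somKO. With lists of equal length, 0 CTCF peaks were gained in somKO, 4 Rad21 peaks were gained and 4 lost, and 88.9% of Rad21 somKO core peaks had CTCF. Flanks of 100 kb left 1 SmcHD1 flank peak at Firre and 5 CTCF gains in somKO. Requiring overlap of 50% of both peaks gave, for CTCF, 7 gained and 7 lost peaks in mut, with 13 gained and 8 lost in somKO. For Rad21 it gave 19 gained and 20 lost in mut, with 19 gained and 18 lost in somKO. It left CTCF on 36.4%, 58.1% and 37.5% of Rad21 core peaks in wt, mut and somKO, and SmcHD1 on CTCF at 2 and on Rad21 at 4. Midpoints within 250 bp gave 5 CTCF gains in mut and 6 losses in somKO, 17 Rad21 gains in mut, and 19 gains and 18 losses in somKO. Counts of gained and lost peaks thus depended on the overlap rule, and the cause was not tested. On percentiles over X, 19 CTCF and 10 Rad21 core peaks were at least 10 points lower in mut, and with equal lists 17 and 10. In somKO there were 3 and 4 such CTCF peaks on those scales, and 2 such Rad21 peaks with equal lists. The motif count was 0 at the stricter threshold and 29 at the looser one. The looser threshold, the other gene models and percentiles on equal lists were chosen after seeing the data.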
